A study of Mus musculus with 6 samples.

Results

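The 39 genes described here mark macrophages and other myeloid cells, and their transcript levels were followed in whole tibialis anterior muscle. Each gene was taken from the probe sets whose only annotated symbol is that gene, with the highest mean deciding between several. All 39 members were found among 19938 measured genes, and each had 1 probe set. The muscles came from 11 week-old mice starved for 6 h. MLC-SOCS-3 mice carry a SOCS-3 transgene on the C57Bl6J strain and are represented by 3 arrays. Control C57Bl6J mice are represented by 3 arrays, and nothing else in the treatment of the muscles is labelled as different between the groups. The labels give the transgene by name, without its promoter or the part of Socs3 it holds. They number the arrays within a group without saying that each is a separate animal, so the p-values below reflect how these samples scatter, and that scatter may be technical only.

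Skeletal muscle holds resident macrophages in the connective tissue between its fibres, and blood monocytes enter after injury and become macrophages there. These cells clear dead fibres and support the satellite cells that rebuild them. SOCS-3 is an intracellular inhibitor of cytokine signalling through JAK and STAT proteins, and both myeloid cells and muscle fibres use that pathway. In RNA from a whole muscle, a change in the number of cells of a type and a change in the RNA that each cell holds cannot be told apart.

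Values are log2 RMA intensities, on which a difference of 1 is a 2-fold change, and differences are MLC-SOCS-3 minus control. The array medians lay between 5.98 and 6.04. The median probe set had a mean of 5.99, and below this level RMA compresses differences. All 11 genes chosen to mark the tibialis anterior lay above it, as did 29 of the 39 members. The 10 members below it were Itgam, Itgax, Cd14, Ccr2, Fcgr1, Cd52, Aif1, Spi1, Msr1 and Ms4a7. Markers of other blood-derived cells were mostly below it, with 2 of 14 neutrophil genes, 1 of 14 lymphocyte genes, 2 of 9 dendritic cell genes and 2 of 8 mast cell genes above. The brighter of the 2 Socs3 probe sets read 7.07, 7.12 and 7.25 on the arrays labelled MLC-SOCS-3, against 7.37, 7.41 and 7.43 on the control arrays (difference -0.26 ± 0.072 SE, limma adjusted p = 0.80). The other probe set read 6.15, 6.15 and 6.12, against 6.46, 6.40 and 6.23 on the control arrays (difference -0.22 ± 0.079 SE, limma adjusted p = 0.82). On both, every MLC-SOCS-3 array lay below every control array, as for 7.76% of all genes. The unadjusted p-values in limma were 0.0114 and 0.0296. A higher Socs3 signal was thus not measured in the muscle labelled as transgenic, and each direction below follows the labels. Whether these probes lie in the transgene is not given in the sources used here.

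The factor PU.1, the product of Spi1, is the master regulator of myeloid genes, and many of their promoters hold its purine-rich core. The 250 bases before the RefSeq start (GRCm38.p6) are shown for 6 members. Itgam, Cd53 and Ccr2 have an unadjusted p under 0.05, Gpnmb has groups that do not overlap, and C1qb and C1qc varied together over the arrays. The capitals mark GAGGAA on either strand. The window of Itgam is at chr7:128062390-128062639 (+ strand), that of Cd53 at chr3:106790150-106790399 (- strand) and that of Ccr2 at chr9:124101933-124102182 (+ strand). Gpnmb lies at chr6:49036268-49036517 (+ strand), C1qb at chr4:136886201-136886450 (- strand) and C1qc at chr4:136892915-136893164 (- strand).
Itgam: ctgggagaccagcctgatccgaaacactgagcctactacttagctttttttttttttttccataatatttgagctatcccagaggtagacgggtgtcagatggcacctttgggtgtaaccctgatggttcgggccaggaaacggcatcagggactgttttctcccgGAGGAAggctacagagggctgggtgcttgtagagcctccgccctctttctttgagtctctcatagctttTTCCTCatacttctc
Cd53: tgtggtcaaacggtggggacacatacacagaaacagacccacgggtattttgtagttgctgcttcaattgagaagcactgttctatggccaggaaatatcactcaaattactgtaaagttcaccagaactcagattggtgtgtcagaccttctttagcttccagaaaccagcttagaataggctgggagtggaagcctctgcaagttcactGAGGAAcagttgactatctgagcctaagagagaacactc
Ccr2: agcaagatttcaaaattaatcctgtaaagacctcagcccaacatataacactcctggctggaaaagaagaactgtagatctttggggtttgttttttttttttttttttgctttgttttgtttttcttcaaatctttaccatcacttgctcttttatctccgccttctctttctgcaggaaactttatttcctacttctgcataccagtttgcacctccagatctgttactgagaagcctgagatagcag
Gpnmb: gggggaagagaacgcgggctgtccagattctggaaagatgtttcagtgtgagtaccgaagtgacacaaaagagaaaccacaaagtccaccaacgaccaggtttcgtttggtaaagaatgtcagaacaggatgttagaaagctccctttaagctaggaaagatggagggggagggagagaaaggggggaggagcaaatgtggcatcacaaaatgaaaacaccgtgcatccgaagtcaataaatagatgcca
C1qb: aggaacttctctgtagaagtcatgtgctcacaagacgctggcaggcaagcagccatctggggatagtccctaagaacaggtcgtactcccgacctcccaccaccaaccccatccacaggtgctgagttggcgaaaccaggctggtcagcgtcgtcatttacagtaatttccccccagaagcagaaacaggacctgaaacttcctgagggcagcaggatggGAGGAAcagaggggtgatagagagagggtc
C1qc: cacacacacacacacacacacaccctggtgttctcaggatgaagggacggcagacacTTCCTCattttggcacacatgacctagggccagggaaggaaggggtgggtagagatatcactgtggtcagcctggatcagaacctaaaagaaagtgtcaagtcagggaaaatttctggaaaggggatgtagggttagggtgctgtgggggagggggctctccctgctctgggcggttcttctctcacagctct

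The Itgam window held 2 matches, 84 and 15 bases before the gene's start, and that of Cd53 held 1, 39 bases before it. C1qb had 1 match at 30 bases and C1qc 1 at 193 bases, while the windows of Ccr2 and Gpnmb had none. Promoter windows were found for 30 of the 39 members, and 14 of their 34 windows (41.2%) held GAGGAA, against 23.3% of all 32851 windows. The longer spelling AGAGGAAGT, which contains the shorter one, was in 0 of the 34 windows and in 0.798% of all windows. GAGGAA was kept after several spellings of the core had been looked at, so its share among the members is a description and no test. A match is a run of letters and not a bound site. Of the members with an unadjusted p under 0.05 in the comparison below, Itgam and Cd53 held the core, Ccr2 did not, and no window of Tyrobp is shown.

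No myeloid marker passed limma's test between the groups. Of 39 members, 0 had an adjusted p under 0.05, and the same was true of all probe sets (0 of 35557, 0.0%). The smallest adjusted p of a member was 0.73, for Itgam. At an unadjusted p under 0.05, 4 members were higher in MLC-SOCS-3 muscle (Itgam, Ccr2, Cd53 and Tyrobp), against 1.36% of all genes, and 0 were lower, against 3.5% of all genes. The higher count was 1 (Itgam) without control replicate 3 (1.34% of all genes), without MLC-SOCS-3 replicate 2 (1.19%) or without MLC-SOCS-3 replicate 3 (1.15%). In the last case Aif1 was on the lower side, against 3.26% of all genes. The higher count was 2 (Itgam and Ccr2) without control replicate 1 (1.28%). It was 4 without control replicate 2 (1.29%), where Lgals3 stood in place of Ccr2. It was 6 without MLC-SOCS-3 replicate 1 (1.56%), where Cd68 and Msr1 joined the other 4. With the replicate number as a block it was 2 (Itgam and Cd53).

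Over the whole list 26 members had a positive difference and 13 a negative one. The positive share was 66.7%, against 43.8% of all genes. The median difference was 0.052, against -0.016 over all genes. Both values rest on control replicate 1. Without this array 17 of the 39 members were positive, against 47.8% of all genes, and the median changed sign to -0.032, against -0.0055 over all genes. The differences were small, with 20 members within 0.1 of 0 and 3 (Itgam, Ccr2 and Cd68) beyond 0.5. For 37 members the 95% interval of the measured intensities lay within a 2-fold difference in either direction. The 2 exceptions were Cd68, with an upper bound of 1.21, and Ccr2, with one of 1.10. Several of the 37, such as Itgax and Ms4a7, lie below the median probe set, where RMA compresses differences. Their narrow intervals therefore do not exclude a 2-fold change in RNA. The scatter behind all these intervals may also be technical only.

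**Figure D1:**
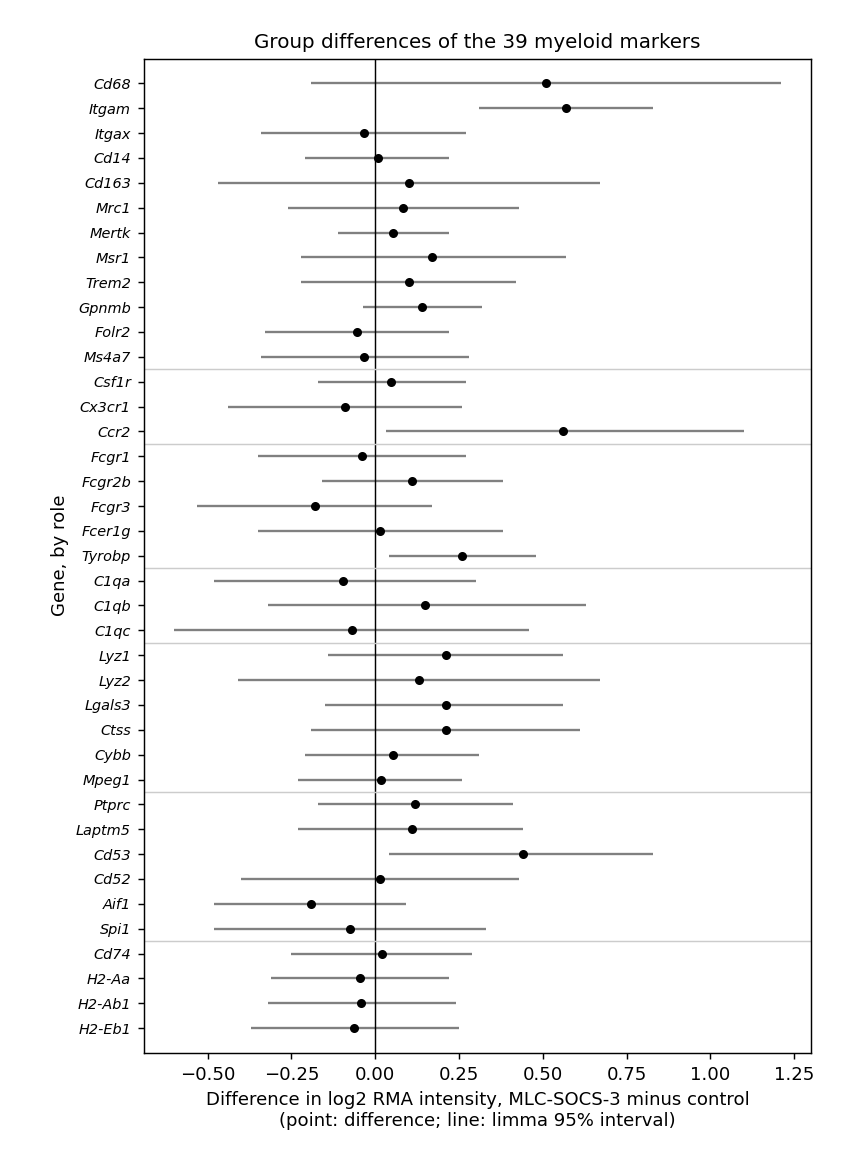
Differences in log2 RMA intensity, MLC-SOCS-3 minus control, for the 39 myeloid markers grouped by role. Points are differences and lines are limma's 95% intervals over 3 arrays a group. The intervals of Itgam, Ccr2, Tyrobp and Cd53 lie above 0, without adjustment for the number of genes tested, and all others cross it.

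Among the integrins and the scavenger and clearance receptors, 9 of 12 members had positive differences, with a median of 0.092. Itgam encodes the alpha chain of the integrin Mac-1, with which neutrophils and macrophages adhere and take up complement-coated particles. It read 5.53, 5.76 and 5.61 on the MLC-SOCS-3 arrays, against 4.88, 5.17 and 5.14 on the control arrays. Every MLC-SOCS-3 array lay above every control array. The means were 5.64 ± 0.12 in MLC-SOCS-3 muscle and 5.06 ± 0.16 in control muscle (SD, n = 3 each), a 1.48-fold difference of 0.57 with a 95% interval from 0.31 to 0.83. Leaving out any 1 array kept it between 0.48 and 0.63. Its neighbour Itgax, the alpha chain of a related integrin of dendritic cells and macrophages, differed by -0.033 ± 0.12 (SE).

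Cd68 encodes a lysosomal glycoprotein widely used to stain macrophages. It read 6.34, 7.21 and 7.49 on MLC-SOCS-3 replicates 1, 2 and 3, against 6.54, 6.49 and 6.47 on the control arrays. MLC-SOCS-3 replicate 1 was the lowest of the 6 arrays and the other two were the highest, while the controls lay within 0.07 of each other. The difference of 0.51 ± 0.29 (SE) had an adjusted p of 0.86 in limma. The difference was 0.85 when MLC-SOCS-3 replicate 1 was left out and 0.27 when MLC-SOCS-3 replicate 3 was left out. Msr1, a scavenger receptor for modified lipoproteins, showed the same order within MLC-SOCS-3 muscle, at 4.47, 4.97 and 5.01, against 4.72, 4.50 and 4.71 in control muscle. Its groups overlapped, and it differed by 0.17 ± 0.16 (SE).

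Gpnmb encodes a membrane glycoprotein of macrophages that have taken up lipid or debris. It read 6.25, 6.35 and 6.25 on the MLC-SOCS-3 arrays, against 6.11, 6.07 and 6.23 on the control arrays. The groups did not overlap, by the narrow margin between 6.25 and 6.23, and differed by 0.14 ± 0.073 (SE). Cd163, the scavenger receptor for haemoglobin on resident macrophages, read 7.38, 7.51 and 7.60 in MLC-SOCS-3 muscle, against 6.88, 7.81 and 7.49 in control muscle. The controls spanned more than the MLC-SOCS-3 arrays and held both the lowest and the highest value. The difference was 0.10 ± 0.23 (SE), and -0.15 without control replicate 1. The mannose receptor Mrc1, another marker of resident and repair-type macrophages, differed by 0.082 ± 0.14, and Folr2, a folate receptor of resident macrophages, by -0.054 ± 0.11. The apoptotic cell receptor Mertk differed by 0.054 ± 0.069 and the lipid receptor Trem2 by 0.10 ± 0.13. Cd14, the co-receptor for bacterial lipopolysaccharide, differed by 0.0073 ± 0.088 and Ms4a7, a membrane protein of macrophages, by -0.034 ± 0.13.

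Of the 3 receptors that guide monocytes or keep macrophages alive, 2 had positive differences. Ccr2, the chemokine receptor that brings monocytes from the blood, read 5.05, 5.82 and 5.34 on the MLC-SOCS-3 arrays, against 5.06, 4.87 and 4.60 on the control arrays. MLC-SOCS-3 replicate 1 was within the control range and the other two were above it. The difference was 0.56 ± 0.22 (SE), 1.48-fold, with an adjusted p of 0.83 in limma, and it ran from 0.36 to 0.74 when single arrays were left out. Cx3cr1, the fractalkine receptor, read 6.26, 5.83 and 5.85 in MLC-SOCS-3 muscle, against 6.03, 6.23 and 5.95 in control muscle. Here MLC-SOCS-3 replicate 1 was the highest array, and the difference was -0.089 ± 0.14. Csf1r, the receptor for the growth factor on which macrophages depend, read 7.47, 7.69 and 7.66, against 7.47, 7.65 and 7.58 in control muscle. The lowest readings of the groups were alike as printed, and the difference was 0.047 ± 0.091.

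**Figure D2:**
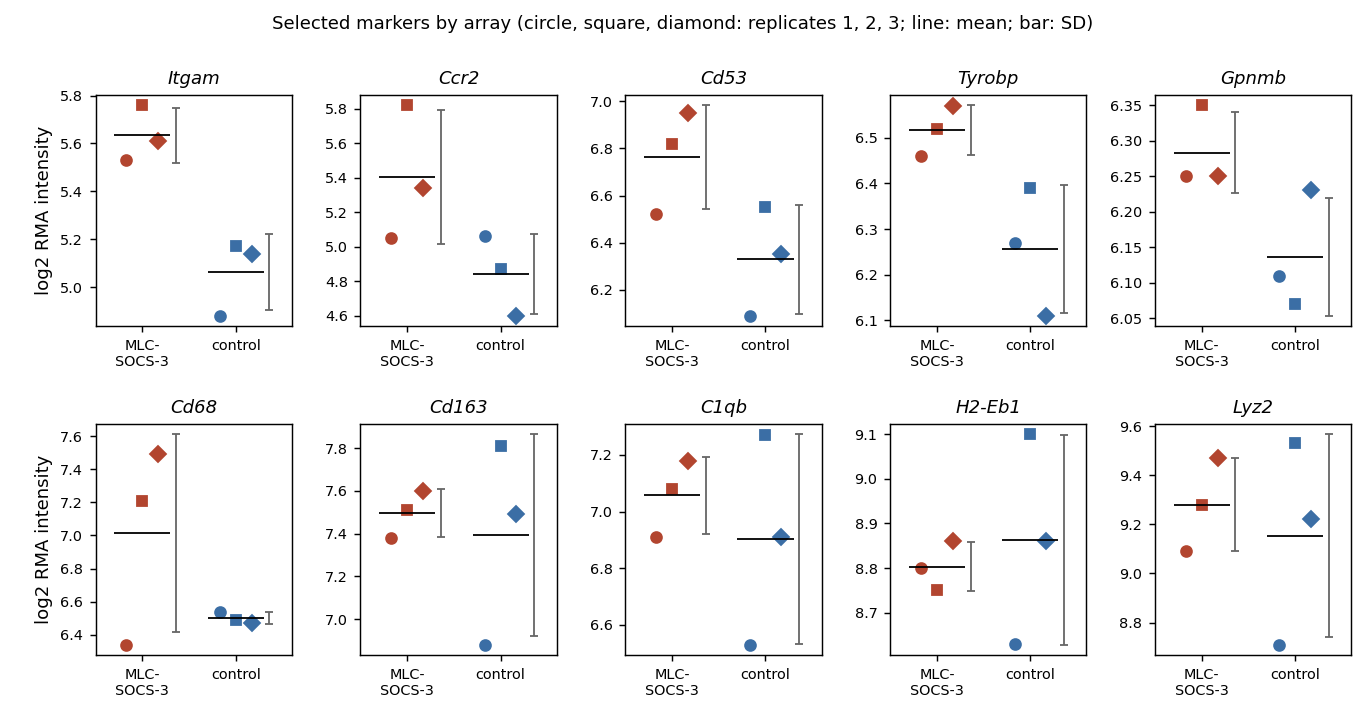
Log2 RMA intensity of 10 markers on each of the 6 arrays, MLC-SOCS-3 at left and control at right, each panel with its own scale. Symbols mark replicates, black lines the group means and grey bars the SD (n = 3). Itgam, Tyrobp and Gpnmb separate the groups, Cd68 splits the MLC-SOCS-3 arrays, and Cd163, C1qb, H2-Eb1 and Lyz2 are spread widest among the controls.

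Tyrobp, the adaptor through which Trem2 and other myeloid receptors signal, was the one Fc receptor or adaptor gene with groups that did not overlap. It read 6.46, 6.52 and 6.57 on the MLC-SOCS-3 arrays, against 6.27, 6.39 and 6.11 on the control arrays. The difference was 0.26 ± 0.091 (SE), 1.20-fold, with an adjusted p of 0.82 in limma. Fcer1g, the signalling chain that Fc receptors share, read 7.13, 7.36 and 7.38, against 7.09, 7.57 and 7.17 in control muscle, with a difference of 0.014 ± 0.15. The activating receptors Fcgr1 and Fcgr3 differed by -0.04 ± 0.13 and -0.18 ± 0.14, and the inhibitory receptor Fcgr2b by 0.11 ± 0.11. Fcgr2b and Fcgr3 are related in sequence, and signal that their probes might share was not separated.

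Of all genes, 4.52% were higher on every MLC-SOCS-3 array than on any control array and 7.76% were lower. Among the 39 members these counts were 3 (Itgam, Tyrobp and Gpnmb) and 0. They depend on single arrays. Without MLC-SOCS-3 replicate 1 there were 11 higher members, against 9.38% of genes, and 1 lower, against 15.7%. Without control replicate 2 there were 9 higher, against 7.91% of genes. Without control replicate 1 there were 5 lower, against 11.4% of genes. Without MLC-SOCS-3 replicate 2 there were 5 higher (9.19% of genes) and 2 lower (12.0%), and without MLC-SOCS-3 replicate 3 there was 1 lower (13.4%).

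The 3 chains of complement C1q, which macrophages secrete and which starts the classical complement pathway, followed each other over the arrays. C1qb read 6.91, 7.08 and 7.18 on the MLC-SOCS-3 arrays, against 6.53, 7.27 and 6.91 on the control arrays. C1qc read 7.32, 7.48 and 7.78, against 7.15, 7.83 and 7.80 in control muscle. C1qa read 7.19, 7.58 and 7.64, against 7.33, 7.72 and 7.64 in control muscle. In each group replicate 1 had the lowest reading of all 3 chains, and control replicate 2 was the highest of the 6 arrays for all of them. The group differences were 0.15 ± 0.19 for C1qb, -0.068 ± 0.22 for C1qc and -0.095 ± 0.16 for C1qa (SE).

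The MHC class II genes, with which macrophages and other antigen-presenting cells show peptides to T cells, had differences between -0.062 and 0.021, the narrowest range of the 7 role groups. H2-Eb1 read 8.80, 8.75 and 8.86 on the MLC-SOCS-3 arrays, against 8.63, 9.10 and 8.86 on the control arrays. H2-Aa read 8.27, 8.28 and 8.32, against 8.15, 8.53 and 8.32 in control muscle. For both genes the MLC-SOCS-3 arrays lay inside the control range, which ran from replicate 1 at the bottom to replicate 2 at the top. Differences were -0.062 ± 0.13 for H2-Eb1, -0.045 ± 0.11 for H2-Aa, -0.043 ± 0.12 for H2-Ab1 and 0.021 ± 0.11 for Cd74, the invariant chain that guides class II molecules (SE).

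All 6 lysozyme and effector genes had positive differences, with a median of 0.17, and none had an unadjusted p under 0.05. Lyz2, the lysozyme of macrophages and neutrophils, read 9.09, 9.28 and 9.47 on the MLC-SOCS-3 arrays, against 8.71, 9.53 and 9.22 on the control arrays. Control replicates 1 and 2 were the lowest and the highest of all arrays. Its difference of 0.13 ± 0.22 (SE) became -0.092 without control replicate 1. The nearly identical neighbour Lyz1, whose probes may also read Lyz2, differed by 0.21 ± 0.14. The lysosomal protease Ctss and the lectin Lgals3 each differed by 0.21, with SEs of 0.16 and 0.14, and without control replicate 1 Ctss stood at 0.033. Mpeg1, a pore-forming protein of phagosomes, differed by 0.017 ± 0.10. Cybb, the catalytic subunit of the phagocyte oxidase, read 6.18, 5.84 and 6.17, against 6.01, 6.00 and 6.02 in control muscle. It departed from the other effectors in being lowest on MLC-SOCS-3 replicate 2.

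Among the pan-leukocyte genes and regulators, Cd53, a tetraspanin, had the largest difference, 0.44 ± 0.16 (SE), with an adjusted p of 0.82 in limma. It read 6.52, 6.82 and 6.95 on the MLC-SOCS-3 arrays, against 6.09, 6.55 and 6.35 on the control arrays. MLC-SOCS-3 replicate 1 lay just under control replicate 2. Ptprc, the leukocyte common antigen, read 6.06, 6.18 and 6.12, against 6.09, 6.15 and 5.76 in control muscle, and differed by 0.12 ± 0.12. The lysosomal membrane gene Laptm5 differed by 0.11 ± 0.14 and the surface glycoprotein gene Cd52 by 0.014 ± 0.17. Aif1, an actin-binding protein of activated macrophages, had the most negative difference of the list, -0.19 ± 0.12. Spi1 itself, which encodes PU.1, read 5.03, 5.63 and 5.21, against 5.27, 5.51 and 5.33 in control muscle (difference -0.076 ± 0.17).

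**Figure D3:**
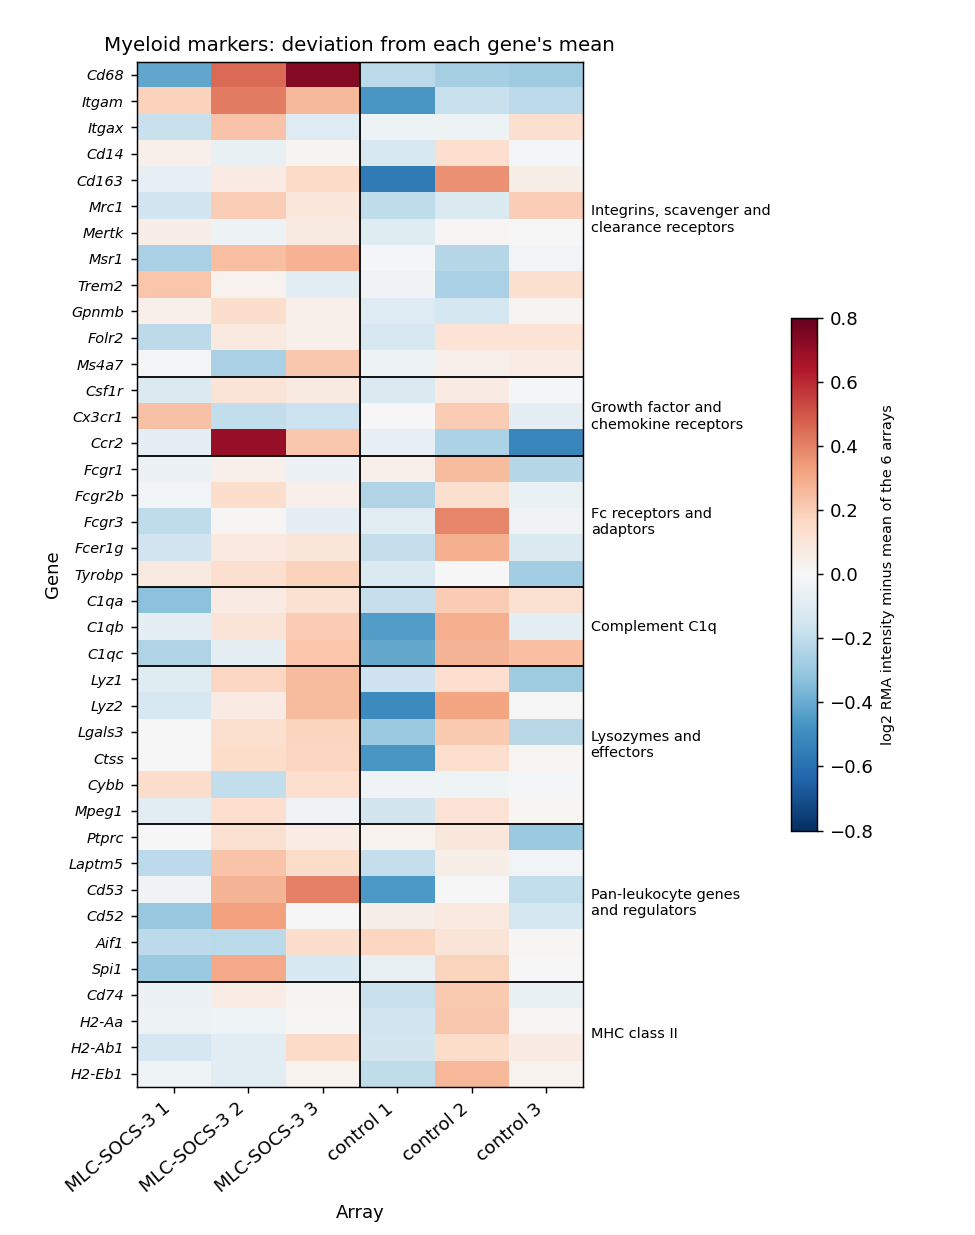
Log2 RMA intensity of each marker minus its mean over the 6 arrays, with MLC-SOCS-3 arrays at left, control arrays at right and genes grouped by role. Control replicate 1 is low and control replicate 2 high through C1q, the MHC class II genes, Lyz2 and Cd163, while Cd68 and Ccr2 are highest on MLC-SOCS-3 replicates 3 and 2.

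For 34 of the 39 members the range of the 3 controls exceeded the difference between the groups. Itgam, Cd68, Ccr2, Cybb and Aif1 were the other members. The spread was shared by the markers. Control replicate 1 was the lowest control for 26 members (66.7%), against 25.8% of all genes, and control replicate 2 was the highest control for 28, against 28.2% of all genes. MLC-SOCS-3 replicate 1 was the lowest array of its group for 31 members, against 29.9% of all genes. The mean of the 39 members, each set against its own mean over the 6 arrays, was -0.081, 0.10 and 0.11 on MLC-SOCS-3 replicates 1, 2 and 3. On control replicates 1, 2 and 3 it was -0.17, 0.089 and -0.051. The groups overlapped on this scale, since MLC-SOCS-3 replicate 1 was lower than 2 of the 3 control arrays.

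How far the markers varied together inside the groups was described by the correlation of their deviations from the group means over the 6 arrays, averaged over all pairs of genes. It was 0.33 among the 39 members and 0.016 among all genes. A value of this size was not particular to the myeloid markers, since 12 connective tissue genes gave 0.34 and 12 genes of alternative activation and repair gave 0.27. Among the role groups of the members it was 0.86 for C1q, 0.84 for MHC class II and 0.75 for the Fc receptors and adaptors. It was 0.42 for the lysozymes and effectors and 0.42 for the pan-leukocyte genes and regulators. The integrins, scavenger and clearance receptors gave 0.20, and the growth factor and chemokine receptors gave -0.19. All pairs share the same 6 arrays, and these values are descriptive. In C1q, MHC class II and the Fc receptors and adaptors, 12 genes had differences between -0.18 and 0.26, while Itgam and Ccr2, the largest differences of the list, stood among the receptors that varied together least.

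Genes of myeloid signalling outside the 39 markers were taken from lists of their ligands and products, and 0 of these genes passed over all probe sets. Of 20 macrophage growth factors and recruiting chemokines, 10 were positive and 10 negative (median -0.00067). The monocyte chemokine Ccl7 differed by 0.28 ± 0.10 (SE) and Ccl8 by -0.36 ± 0.13, each with groups that did not overlap. This was 1 of 20 genes on either side, against 4.52% of all genes on the higher side and 7.76% on the lower. Both genes lie below the median probe set. Ccl9 read 6.56, 7.69 and 7.53 on MLC-SOCS-3 replicates 1, 2 and 3, against 6.53, 6.81 and 6.43 on the control arrays, with the same replicates high as for Cd68. Of 16 inflammatory products 3 were positive (18.8%, against 43.8% of all genes) and 13 negative (median -0.096). Only 3 of the 16 (Socs3, Tlr2 and Tlr4) lay above the median probe set. The mean deviation of the inflammatory products was -0.063, -0.051 and -0.022 on the MLC-SOCS-3 arrays. On control replicates 1, 2 and 3 it was 0.15, -0.02 and 0.0076, so control replicate 1 stood apart. Socs3 itself is in this list, counted as negative, and had its smallest unadjusted p (0.0114 in limma). Il12b, a subunit of the cytokines IL-12 and IL-23, differed by -0.31 ± 0.11, and the endotoxin receptor Tlr4 by 0.31 ± 0.14. Of 12 genes of alternative activation and repair 5 were positive and 7 negative (median -0.0082). In that list Hmox1, the haem-degrading enzyme, read 7.48, 8.38 and 8.27, against 7.63, 7.40 and 7.32 in control muscle. Retnla, a secreted product of alternatively activated macrophages, differed by 0.39 ± 0.27 and the cytokine Il10 by -0.19 ± 0.13.

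Further genes of resident macrophages were positive in 7 of 14 cases (median 0.016), with Cbr2, a carbonyl reductase, at -0.37 ± 0.11 (SE), the hyaluronan receptor Lyve1 at 0.33 ± 0.16 and the lectin Cd209d at 0.24 ± 0.11. Of 17 myeloid transcription factors and signalling genes 8 were positive (median -0.0069), with the cytokine receptor chain Csf2rb at 0.27 ± 0.13, the kinase Btk at 0.18 ± 0.11 and the phospholipase Plcg2 at -0.15 ± 0.094. Of 18 genes of the phagocyte oxidase and the lysosome 7 were positive (median -0.019). The protease Ctsk, which osteoclasts and fibroblasts also make, read 6.94, 7.67 and 7.33, against 6.88, 6.59 and 6.75 in control muscle. Grn, the progranulin gene, differed by 0.15 ± 0.067. These 2 of the 18 genes had groups that did not overlap, on the higher side, against 4.52% of all genes. The acid lipase Lipa differed by 0.23 ± 0.10.

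Markers of other cells were set beside these values. Of 12 connective tissue genes 11 were positive (91.7%, against 43.8% of all genes, median 0.13), and 0 had an unadjusted p under 0.05 in limma. They varied together inside the groups, and the lists were chosen with earlier results of these data known. Their mean deviation was -0.14, 0.28 and 0.12 on MLC-SOCS-3 replicates 1, 2 and 3, against -0.069, -0.14 and -0.051 on control replicates 1, 2 and 3. Within MLC-SOCS-3 muscle, the arrays with high Cd68, Ccr2 and Ccl9 were those with high connective tissue genes. The controls did not follow this order. Control replicate 2 was the lowest control for connective tissue (-0.14) and the highest for the myeloid list (0.089) and for Ccl9 (6.81). None of the 12 connective tissue genes lay below the median probe set. Mmp2, Pdgfra and Col3a1 differed by 0.22 ± 0.099, 0.16 ± 0.071 and 0.28 ± 0.14 (SE). Of 8 adipocyte genes 7 were positive (87.5%, against 43.8% of all genes, median 0.16). Their mean deviations were 0.082, 0.026 and 0.18 on the MLC-SOCS-3 arrays, against -0.11, -0.13 and -0.046 on the controls. Adipoq, Plin1 and Lep differed by 0.64 ± 0.098, 0.21 ± 0.098 and 0.26 ± 0.13. All of these lie below the median probe set, and the 5 adipocyte genes above it had a median difference of 0.091. The muscle marker list stood at -0.073, -0.006 and -0.044 on the MLC-SOCS-3 arrays, against 0.091, 0.019 and 0.013 on the controls. Its median difference was -0.015, and single genes weighed on its mean. On control replicate 1 Myod1 and Myh2 read 9.46 and 12.52. They read 9.02 and 11.97 on control replicate 2 and 9.21 and 12.01 on control replicate 3. Ckm read 14.52, 14.51 and 14.51 on the control arrays, and Myh4 was lowest on control replicate 1, at 14.18. Control replicate 1, lowest for the myeloid list, was highest for the muscle list and for the mean over all genes (0.036). The part of these cell types in the myeloid values was not tested.

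**Figure D4:**
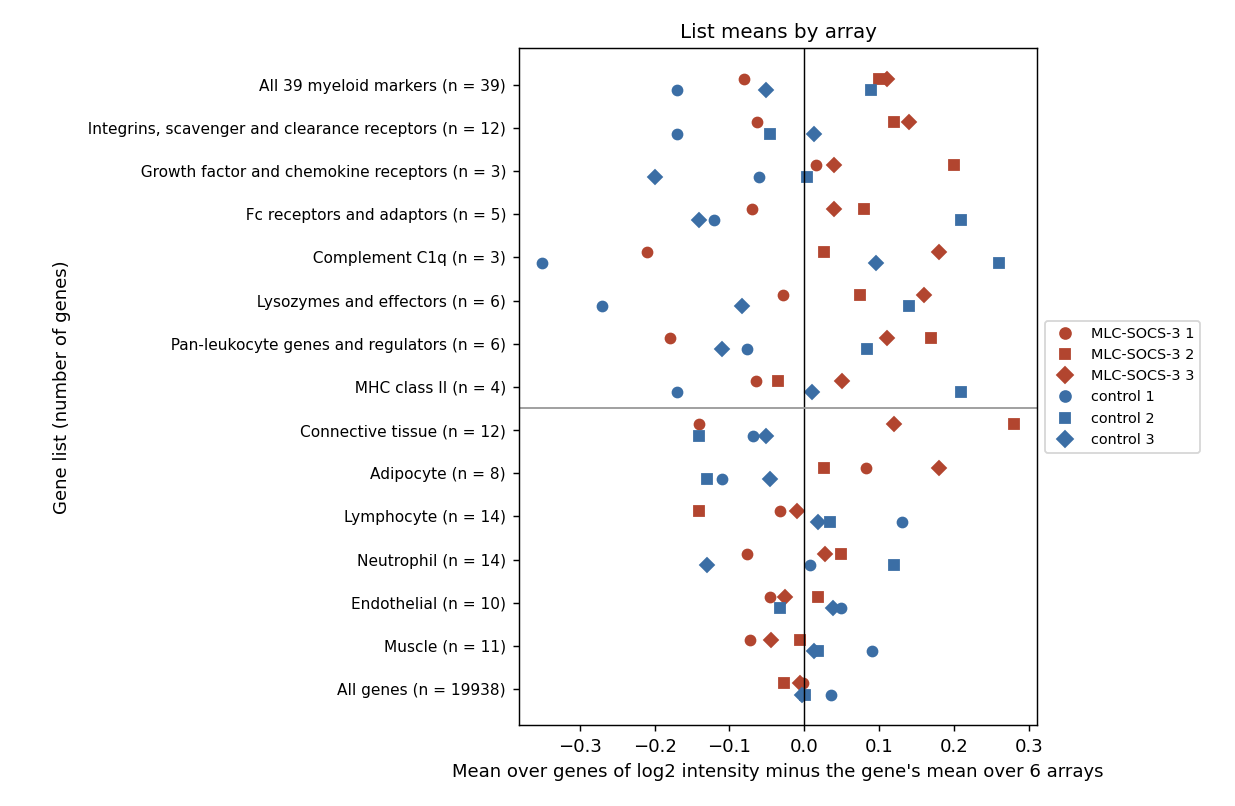
Mean deviation of gene lists on each array, in log2 RMA intensity minus each gene's mean over the 6 arrays, for the 39 markers, their role groups and markers of other cells. Colours mark the groups and symbols the replicates. The myeloid list runs from -0.17 on control replicate 1 to 0.11 on MLC-SOCS-3 replicate 3, with overlapping groups, while the connective tissue list is at 0.28 on MLC-SOCS-3 replicate 2.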

How the data were processed

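The deposited values are log2 intensities, 1 for each probe set on each array. The submitters' processing notes name RMA and Affymetrix Expression Console, without versions, and the genome build is likewise not given. RMA subtracts background, gives all arrays 1 distribution and merges the probes of a set, so probes cannot be viewed singly. The values ran from 1.41 to 15.1 and were used as deposited. There are no detection calls, and 3 arrays per group limit precision.

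The table has 35557 probe sets. GEO's annotation, possibly outdated, gives 21789 of them 1 symbol and 1621 several, and the other 12147 are unnamed here. Through Entrez identifiers, 21698 were matched to the GRCm38.p6 gene table for current symbols. The highest mean chose a gene's probe set.

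Both groups were compared by limma 3.58.1 in R 4.3.3 (lmFit, eBayes, two-sided), adjusted by Benjamini-Hochberg over the whole table at a threshold of 0.05. The fit was tested on simulated data drawn independently for each probe set, which does not cover markers that vary together. Every member is named, and up to 3 genes with the smallest p of each other list. The members and lists were chosen with earlier results of these data known, and GAGGAA was kept after several spellings of the core had been looked at. Alternatives were 1 probe set per gene, listed probe sets only, array centring, quantile normalization, a filter at the median probe set, a variance trend with robust moderation, a replicate block, a second probe set and leaving out single arrays. At most 36 values were identical between any 2 arrays.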

Additional observations from a re-analysis of the deposited data

How the results depend on the processing

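No member was called under any of the 15 alternatives, with a lowest adjusted p of 0.29 in limma. Of these, the second probe set could test no member, and the filter at the median probe set tested 29 of the 39. When single arrays were left out, 16 members kept the sign of their difference in every fit and 23 changed it in at least 1, all of these with a difference no larger than 0.15 in size. Over those fits the differences ran, for C1qa from -0.21 to 0.045, C1qb from -0.034 to 0.34, C1qc from -0.29 to 0.052, Cd14 from -0.055 to 0.077, Cd163 from -0.15 to 0.31, Cd52 from -0.15 to 0.17, Cd74 from -0.063 to 0.13 and Csf1r from -0.0013 to 0.12. They ran, for Cybb from -0.0066 to 0.16, Fcer1g from -0.082 to 0.16, Fcgr1 from -0.16 to 0.074, Folr2 from -0.13 to 0.036, H2-Aa from -0.14 to 0.055, H2-Ab1 from -0.13 to 0.018, H2-Eb1 from -0.18 to 0.057 and Itgax from -0.15 to 0.048. They ran, for Lyz2 from -0.092 to 0.32, Mpeg1 from -0.053 to 0.078, Mrc1 from -0.0012 to 0.2, Ms4a7 from -0.15 to 0.086, Ptprc from -0.0015 to 0.2, Spi1 from -0.25 to 0.053 and Trem2 from -0.00039 to 0.19. Among the 16 that kept their sign, Aif1 ran from -0.31 to -0.13, Cx3cr1 from -0.23 to -0.008, Fcgr3 from -0.27 to -0.028, Cd53 from 0.31 to 0.56, Ctss from 0.033 to 0.33, Fcgr2b from 0.017 to 0.2, Gpnmb from 0.11 to 0.19, Laptm5 from 0.019 to 0.24, Lgals3 from 0.11 to 0.36, Lyz1 from 0.12 to 0.33, Mertk from 0.019 to 0.089, Msr1 from 0.075 to 0.34 and Tyrobp from 0.19 to 0.33. The other 3 were Itgam, Ccr2 and Cd68. The median over the 39 members ran from -0.032 to 0.094. Leaving out single arrays gave 0 to 1 probe sets called in the whole table, 1 to 6 members higher and 0 to 1 lower at an unadjusted p under 0.05, 17 to 30 members with a positive difference, and 3 to 11 members higher and 0 to 5 lower with groups that do not overlap. The median of the lymphocyte list ran from -0.19 to -0.072, that of the dendritic cell list from -0.14 to -0.02 and that of the adipocyte list from 0.071 to 0.21. On probe sets above the median probe set, 2 members (Cd53 and Tyrobp) were higher at an unadjusted p under 0.05, since Itgam and Ccr2 lie below it, and medians were 0.065 for mast cell, 0.019 for lymphocyte, -0.19 for dendritic cell, 0.091 for adipocyte and 0.15 for blood genes, over fewer genes. With 1 probe set per gene tested, 1 gene was called. With only listed probe sets, a variance trend and robust moderation, chosen after seeing the data, 11 probe sets of 11 genes were called, and no member was among them. The replicate number as a replicate block gave 2 higher members at an unadjusted p under 0.05. Over all probe sets, same-numbered arrays did not deviate together, with correlations of -0.0262, -0.0183 and -0.0431, and the numbers are not taken as pairs. Among the 39 members, however, replicate 1 was lowest of its group for 31 in MLC-SOCS-3 muscle and for 26 in control muscle. Whether the markers share an effect of the replicate number was not tested. No member has a second probe set to compare.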

Other observations

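Markers of other leukocytes gave no called gene (0 by limma at an adjusted p under 0.05). At an unadjusted p under 0.05, 2 of 14 lymphocyte genes and 1 of 9 dendritic cell genes were lower, against 3.5% of all genes. None of these genes was higher, against 1.36% of all genes, and 0 of 14 neutrophil and 0 of 8 mast cell genes passed in either direction. Of the lymphocyte genes 4 were positive and 10 negative (median -0.14). The T cell gene Cd3g read 3.64, 3.82 and 3.83 on the MLC-SOCS-3 arrays, against 3.95, 4.12 and 4.13 on the control arrays. The granzyme gene Gzmb read 4.28, 4.32 and 4.33, against 4.60, 4.55 and 4.40 on the control arrays. Both have groups that do not overlap, as 7.76% of all genes do on the lower side, and both lie below the median probe set. Cd8a differed by -0.24 ± 0.14 (SE). Of the dendritic cell genes 3 were positive and 6 negative (median -0.087). Zbtb46, a transcription factor of dendritic cells that endothelial cells also express, read 7.23, 7.05 and 7.08, against 7.48, 7.43 and 7.29 on the control arrays. Ccr7, which guides dendritic cells to lymph nodes, differed by -0.23 ± 0.12, and Batf3 by -0.11 ± 0.075.

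Of the neutrophil genes 8 were positive and 6 negative (median 0.02), with Ngp at 0.19 ± 0.094 (SE), S100a8 at -0.29 ± 0.16 and Mmp9 at 0.25 ± 0.14. Of the mast cell genes 5 were positive and 3 negative (median 0.0044), with the protease Mcpt4 at 0.12 ± 0.091, Kit at -0.099 ± 0.077 and Ms4a2 at -0.11 ± 0.098. Endothelial genes were positive in 4 of 10 cases (median -0.017), with Pecam1 at 0.14 ± 0.071, Kdr at -0.24 ± 0.14 and Vwf at -0.11 ± 0.11. Only 2 blood genes were measured, Alas2 at 0.15 ± 0.07 and Slc4a1 at -0.19 ± 0.12. Of 11 muscle markers 2 were positive (median -0.015), with Myod1 at -0.48 ± 0.18, Myh2 at -0.30 ± 0.15 and Myh1 at 0.06 ± 0.058.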
